A study of Coilia nasus with 12 samples.

Results

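The vacuolar proton pump and the calcium pumps of the stomach are the subject here, with the beta subunits of the sodium pump and the small FXYD proteins that regulate it. Members were the unigenes (transcripts assembled without a genome) whose deposited gene name begins with atp6v, atp6ap, atp1b, atp2a, atp2b, atp2c or fxyd, whatever the case of the letters. There were 52 such unigenes under 26 gene names, among 63567 unigenes in all. Of these, 26 unigenes under 17 names belonged to the vacuolar ATPase, 6 under 4 names to sodium pump beta subunits and FXYD proteins, and 20 under 5 names to the calcium pumps. Pump subunits deposited under other names, such as TCIRG1 for an a subunit of the V-ATPase, are outside this rule. Unigenes were 209 to 4139 bases long, with 10 under 300.

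The libraries come from 12 fish of Coilia nasus, an anchovy that migrates into rivers to spawn, with 1 stomach per library. The condition label reads food intake for 6 of them and no food intake for the other 6, which appear as controls in the extraction protocol. Stomach is the labelled tissue, with gastric mucosa as its source. Age, sex and the time since the meal are not given by the labels. No genetic change or agent is named for either group.

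The vacuolar ATPase (V-ATPase) is a rotary motor. Its V1 sector outside the membrane splits ATP and turns a central shaft, and its V0 sector in the membrane carries protons through a rotating ring into lysosomes, endosomes, secretory vesicles or, in some cells, out of the cell. The sodium pump exchanges sodium for potassium across the plasma membrane, its glycosylated beta subunit helps the pump to reach that membrane, and the gradient it builds drives many epithelial carriers. Calcium ATPases refill the endoplasmic reticulum (SERCA), export calcium from the cell (PMCA) or load the Golgi (SPCA). None of these is the gastric proton pump, H+/K+-ATPase, whose subunits are encoded by atp4a and atp4b and which acidifies the stomach lumen.

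Values are TPM (transcript abundance scaled for length and to a common library total), so that levels can be set side by side between unigenes. Of the 52 members, 42 reached 1 TPM in at least 6 of the 12 libraries and were tested. The 10 that did not were 8 SERCA, 1 V0 and 1 V1 unigenes. None of the 42 passed that filter through 1 group alone. Differences below are on the log2(TPM + 1) scale, as food intake minus no food intake. They were tested with limma over all 40142 unigenes that passed the filter, with Benjamini-Hochberg adjustment over all of them. For each gene name the unigene with the highest mean stands for the gene unless another is named.

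Several libraries stood apart, and their values are given beside the results they touch. Unigenes that behave like ribosomal RNA made up 64.2% of TPM in food intake 6 and 4.34% to 26.9% in the other 11 libraries, which lowers all other TPM in that library. Smooth muscle genes summed to 27095 TPM in no food intake 3 and to 1575 to 6940 elsewhere, with 9 of 10 genes of the list highest in that library. Also highest there were 5 of 6 neuron and glia genes, though not syt1, and 2 of 4 red blood cell genes. Of the 10 striated muscle genes found, 6 were highest in no food intake 6. No food intake 4 held the highest value in 22.8% of all tested unigenes, the largest share of any library. Markers of the acid and pepsinogen secreting cells of the fish stomach summed to 53066 to 221951 TPM with food intake and 24777 to 162515 without, the lowest in no food intake 3. Most of this came from the pepsinogen genes pga and pgc, while kcnq1 of the same list ran from 1.16 to 20.97 TPM. Mitochondrial unigenes whose best match is chicken were present in 7 libraries (food intake 1, 5 and 6, no food intake 1, 2, 4 and 6) and at 0 in the other 5, and differences within each of these library sets are given where they bear on a result.

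No pump unigene passed the test. By limma, 0 of the 42 tested members had an adjusted p under 0.05 in either direction, against 0% of all tested unigenes higher and 0% lower. The smallest adjusted p among members was 0.774. In simulated data with known changes and independent noise, the fit recovered 7 of 100 unigenes changed by a log2 size of 1. Differences of that size can therefore be missed. The simulation held no shift shared by the unigenes of a library, unlike these data. At an unadjusted p under 0.05, 2 members were higher with food intake, beside 2.48% of all tested unigenes, and 0 were lower, beside 3.79%. In no member were the 6 libraries of one group all above the 6 of the other, beside 0.0249% of all tested unigenes that were higher without overlap and 0.142% that were lower.

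The classes differed in where their values lay. Of the 24 tested V-ATPase unigenes, 21 had a positive difference, with a median of 0.32, while 46% of all tested unigenes were positive and their median was -0.04. Of the 6 tested sodium pump beta and FXYD unigenes 2 were positive, with a median of -0.18. That value lay between 2 FXYD3 unigenes of 209 and 313 bases with mammalian best matches (-0.22 and -0.15). The others, with fish best matches, were at 0.50, 0.29, -0.29 and -0.60. The median of the 6 was 0.057 in the first library set alone and 0.056 in the second, where that of all tested unigenes was -0.19 and 0.18. In the second set the differences of the 6 unigenes ran from -1.45 to 0.93. FXYD3, listed at 0 in all 5 libraries of that set, entered its median as 0, so the near-equal medians do not show agreement. Summed TPM of the 6 unigenes was 169 ± 80.7 with food intake and 125 ± 33.7 without (mean ± SD, n = 6). Of the 12 tested calcium pump unigenes 5 were positive, with a median of -0.03. Subunits were measured in the same 12 fish and are not replicates of one another, and the difference between classes was not tested.

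**Figure D1:**
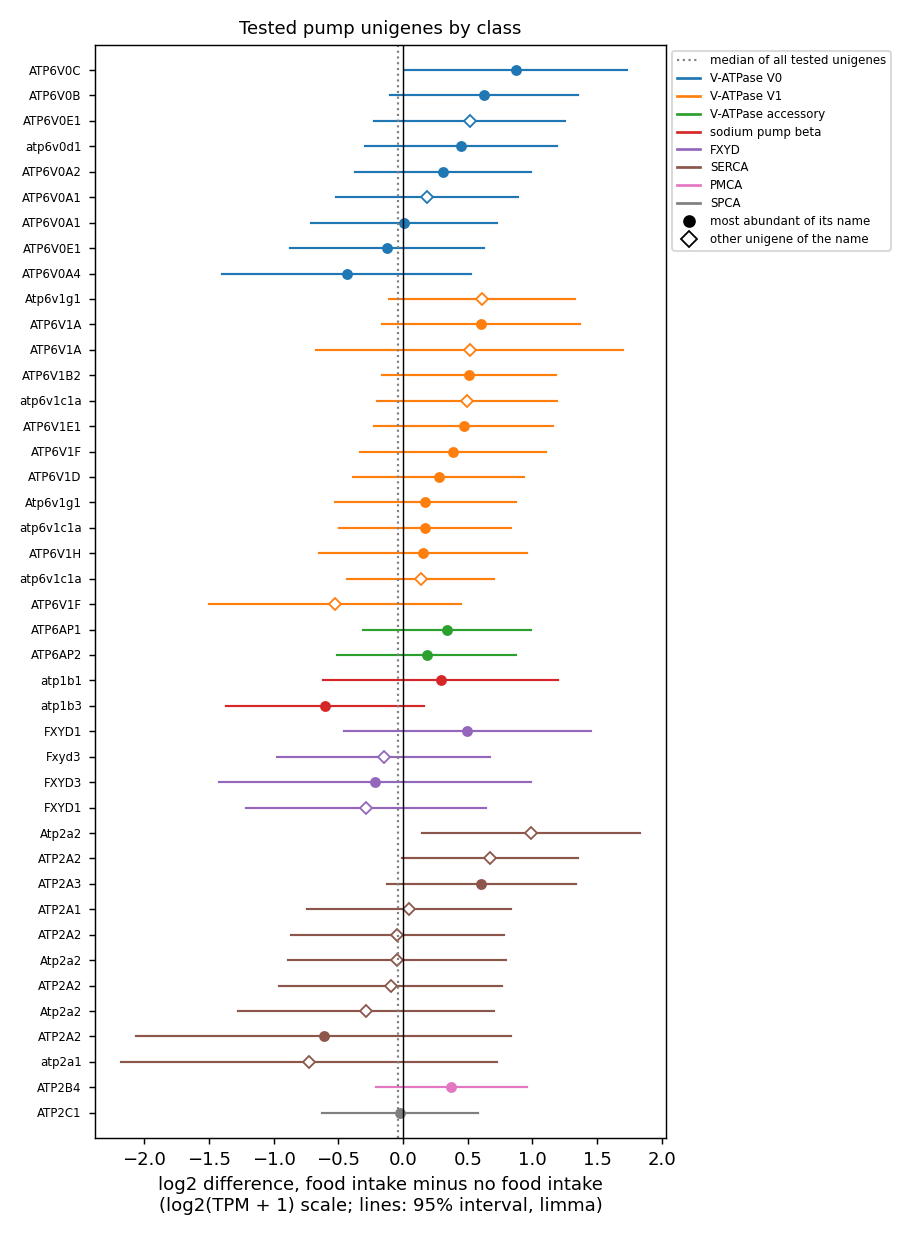
Log2 difference (food intake minus no food intake, log2(TPM + 1) scale) of the 42 tested pump unigenes, grouped by class, with the 95% interval from limma. Filled circles are the most abundant unigene of each name and open diamonds are the others, and the dotted line marks the median of all tested unigenes at -0.04. V0 and V1 unigenes lie mostly to the right of the line, and only ATP6V0C and 1 Atp2a2 unigene have an interval that stays above 0.

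The V-ATPase was present as a nearly complete set of subunits. All 8 subunit types of the V1 sector (A, B, C, D, E, F, G and H) had a named unigene, and the V0 sector had the a, c, c″, d and e subunits. In summed TPM over the 17 genes, food intake 1 to 6 had 209, 140, 148, 92.5, 149 and 38.8, and no food intake 1 to 6 had 93.0, 74.6, 90.7, 89.5, 107 and 95.7. The group sums were 130 ± 57.9 with food intake and 91.8 ± 10.6 without (mean ± SD, n = 6). Food intake 1, 2, 3 and 5 were above every library without food intake, food intake 4 was within their range and food intake 6 was below all of them. The values with food intake were spread more widely than those without.

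The largest V-ATPase difference was in ATP6V0C (TRINITY_DN33687_c5_g3), the c subunit that forms most of the proton-carrying ring. It was also the most abundant V-ATPase unigene. With food intake its TPM was lowest at 7.80 in food intake 6, had a median of 33.1 and was highest at 52.2 in food intake 1. Without food intake it ran from 8.0 through a median of 15.6 to 23.2. Food intake 1, 2, 3 and 5 were above all libraries without food intake, food intake 4 was inside their range at 21.4, and food intake 6 was below all of them. The means were 30.8 ± 15.1 and 15 ± 5.44 TPM (SD, n = 6), and the difference was 0.87 (SE 0.41, 95% interval 0.013 to 1.73, limma unadjusted p = 0.0469, adjusted p = 0.789). ATP6V0B, the c″ subunit of the same ring, had 0.940, 3.94 and 8.10 TPM with food intake and 1.05, 1.89 and 3.22 without (lowest, median and highest), a difference of 0.62 (adjusted p = 0.803).

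The other V0 subunits were spread on both sides of 0. The d subunit atp6v0d1, which couples the ring to the central shaft, had a median of 5.33 TPM with food intake (1.51 to 13.4) and 3.12 without (2.62 to 4.72), and a difference of 0.45 (SE 0.35, adjusted p = 0.864). The a subunits form the path by which protons enter and leave the ring, and their isoforms direct the pump to different membranes. ATP6V0A2 had a difference of 0.31 and means of 6.04 ± 2.86 and 4.29 ± 0.92 TPM. ATP6V0A1, a unigene of 579 bases at 10.5 ± 4.07 and 10.4 ± 4.75 TPM, had a difference of 0.0071. Its highest value of all 12 libraries was in no food intake 4 (19.8 TPM). A rarer but longer ATP6V0A1 unigene (TRINITY_DN34772_c2_g1, 3040 bases) had 3.34 ± 1.69 and 2.71 ± 1.09 TPM and a difference of 0.19 (limma adjusted p = 0.956). ATP6V0E1, a small subunit of the membrane sector, had means of 14.4 ± 7.45 and 14.4 ± 3.95 TPM and a difference of -0.13, which was 0.0087 after rescaling without the rRNA-like unigenes. A rarer but longer ATP6V0E1 unigene (TRINITY_DN32045_c3_g2, 1195 bases) had 4.86 ± 2.63 and 2.78 ± 0.88 TPM. Its difference was 0.51 (limma adjusted p = 0.839). ATP6V0A4, named for the isoform that mammals use in acid-secreting kidney cells, was a fragment of 233 bases whose best protein match is an a subunit of isoform 2, and its difference was -0.44 at means of 0.872 and 1.74 TPM.

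In the V1 sector the most abundant unigene of all 8 names had a positive difference, from 0.16 to 0.60. Over the 13 tested V1 unigenes 12 were positive, with a median of 0.39. The negative one was a rarer ATP6V1F unigene (TRINITY_DN13532_c0_g1) of 212 bases with a primate best match. It had 1.40 ± 1.78 and 2.02 ± 1.58 TPM and a difference of -0.53 (limma adjusted p = 0.877). ATP6V1A, the catalytic subunit that splits ATP, had 0.730, 4.45 and 9.12 TPM with food intake and 1.57, 1.67 and 3.10 without, as lowest, median and highest. Its values in food intake 1, 2, 3 and 5 exceeded the control range, while food intake 4 lay inside it and food intake 6 under it. Its difference was 0.60 (SE 0.36, 95% interval -0.16 to 1.37, adjusted p = 0.814). ATP6V1B2, the non-catalytic partner of subunit A in the ATP-splitting ring, had 1.26, 4.03 and 8.92 against 1.75, 2.27 and 3.32 TPM and a difference of 0.51 (adjusted p = 0.826).

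Subunits of the stalks gave smaller differences. ATP6V1E1, in the outer stalks that hold the ring still, was the most abundant V1 unigene, with means of 9.05 ± 4.44 and 5.75 ± 1.33 TPM and a difference of 0.47 (adjusted p = 0.847). Its stalk partner Atp6v1g1 differed by 0.17, with the highest value in no food intake 3 (13.6 TPM). ATP6V1F and ATP6V1D, parts of the turning shaft, differed by 0.39 and 0.28. The C subunit atp6v1c1a, which governs whether V1 and V0 stay joined, differed by 0.17, and ATP6V1H, which keeps detached V1 from splitting ATP, by 0.16. A short atp6v1c1a unigene of 210 bases was seen in food intake 2 (22.9 TPM) and food intake 4 (5.98 TPM) and was listed at 0 in the other 10 libraries, so that it was too sparse to be tested.

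The accessory proteins, which help to assemble the pump and to direct it, followed the same libraries. ATP6AP1 (Ac45 in mammals) had means of 4.06 ± 1.84 and 2.82 ± 0.91 TPM and a difference of 0.34 (adjusted p = 0.881). ATP6AP2, known in mammals as the prorenin receptor, had 8.37 ± 3.91 and 6.67 ± 1.34 TPM and a difference of 0.18 (adjusted p = 0.956).

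**Figure D2:**
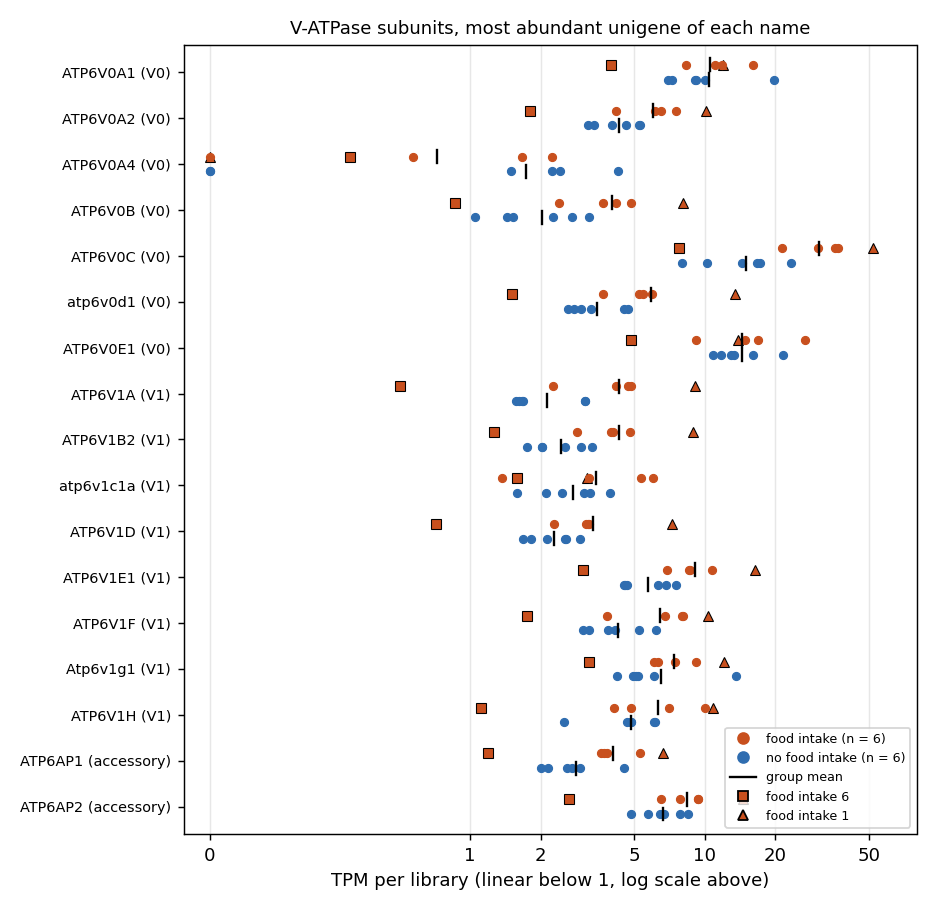
TPM of the most abundant unigene of each of the 17 V-ATPase names in each library (linear below 1, log scale above), with food intake in orange, no food intake in blue and a black bar for the group mean (n = 6 per group). Food intake 6 (squares) is below the control median in all 17 genes, and food intake 1 (triangles) holds the highest value in many of them, such as ATP6V0C at 52.2 TPM.

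The highest and the lowest V-ATPase values were mostly both in the food intake group. Food intake 1 had the highest value in 17 of the 24 tested V-ATPase unigenes, or 70.8%, against 16.2% of all tested unigenes. Food intake 6 had the lowest in 17 of 24, against 35.6% of all tested unigenes. Without food intake 1, 19 of 24 were positive, the median was 0.18 and 0 had an unadjusted p under 0.05, beside 1.67% of all tested unigenes higher and 2.81% lower. Without food intake 6, 22 of 24 were positive, the median was 0.56 and 11 had an unadjusted p under 0.05, all higher, beside 8.36% of all tested unigenes higher and 2.88% lower. Those 11 included ATP6V0C (log2 difference 1.2, unadjusted p = 0.00135, limma adjusted p = 0.191), ATP6V1A (0.89, adjusted p = 0.275) and ATP6V0B (0.87, adjusted p = 0.279). The smallest adjusted p of any member was then 0.191, so that no unigene passed the test there either.

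Rescaling TPM after removal of the rRNA-like unigenes moved the median of all tested unigenes from -0.04 to 0.06, and the differences at an unadjusted p under 0.05 from 997 higher and 1521 lower to 2279 higher (5.68%) and 1014 lower (2.53%). On that scale the summed V-ATPase TPM over the 17 genes was 253, 169, 176, 97.9, 162 and 109 in food intake 1 to 6 and 100.4, 87.0, 125, 102, 147 and 103 in no food intake 1 to 6. Food intake 6 was then inside the control range and 4 of 6 libraries with food intake were above all controls. V-ATPase unigenes were positive in 22 of 24, with a median of 0.44, which exceeds that of all tested unigenes by 0.38, and 5 had an unadjusted p under 0.05. ATP6V0C then differed by 1.02 (unadjusted p = 0.00597, adjusted p = 0.516). Over all members, those at an unadjusted p under 0.05 were 3 with quantile normalization (4.07% of all tested unigenes higher, 4.65% lower) and 4 with median of ratios scaling (4.47% higher, 4.4% lower), all positive. With food intake 6 and no food intake 3 both left out they were 13, all positive, beside 7.14% of all tested unigenes higher and 2.77% lower. In the library sets the V-ATPase median was 0.34 in both, where the median of all tested unigenes was -0.19 in the first and 0.18 in the second. V-ATPase unigenes were positive in 19 of 24 in the first set and 21 of 24 in the second. At an unadjusted p under 0.05 the first set had 0, beside 1.47% of all tested unigenes higher and 5.93% lower. The second had 0 higher and 1 lower, beside 4.88% higher and 1.47% lower.

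Ratios within a library do not depend on how much of it was ribosomal. They were chosen after the values were seen and are given with no test. ATP6V0C over the mean of the other 16 V-ATPase genes was 4.03 to 5.73 with food intake and 1.57 to 4.43 without, so that the groups overlapped while all 6 libraries with food intake were above the control median of 3.50. For comparison, summed V-ATPase over atp4a, the catalytic subunit of the gastric proton pump, was 0.206 to 0.322 with food intake and 0.184 to 2.55 without, with 1 of 6 above the control median. The value of 2.55 belonged to no food intake 3, where atp4a stood at 35.5 TPM and smooth muscle genes were highest.

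**Figure D3:**
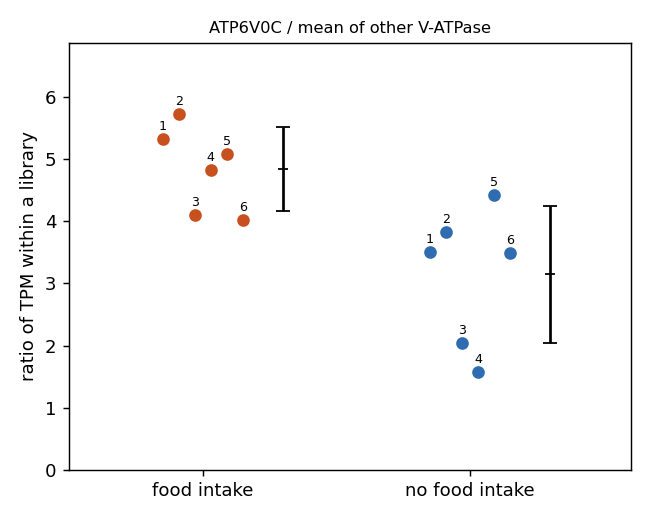
Ratio of TPM within each library of ATP6V0C over the mean of the other V-ATPase genes. Points are libraries labelled by replicate number, and the bars are mean and SD (n = 6 per group). All 6 libraries with food intake lie above the control median of 3.50, and the groups overlap.

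The beta subunits of the sodium pump, which the pump needs to leave the endoplasmic reticulum, lay on opposite sides of 0. For the abundant atp1b1, TPM was 12.3, 53.2 and 86.0 with food intake and 16.5, 37.7 and 54.7 without, as lowest, median and highest. Food intake 6 was below all other libraries, and the ranges overlapped. Its difference was 0.29 (SE 0.43, adjusted p = 0.938). The rarer atp1b3 had 0.850, 1.89 and 3.33 against 1.19, 3.02 and 9.95 TPM and a difference of -0.60 (SE 0.36, adjusted p = 0.814). Its highest value was in no food intake 3, the library with the most smooth muscle RNA, where 5 of 6 neuron and glia genes were also highest. Whether RNA of these cell types accounts for it was not tested. Without that library the groups still overlapped, since food intake 2 at 3.33 TPM was above no food intake 2 at 1.19.

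FXYD proteins tune the affinity and rate of the sodium pump in a tissue-dependent way. FXYD1 (phospholemman in mammals, TRINITY_DN35497_c3_g4) had the highest mean of all members. Its TPM was 29.5, 101 and 192 with food intake and 36.2, 61.2 and 127 without, in wide and overlapping ranges. The means were 107 ± 59.7 and 70.0 ± 33.6 TPM and the difference was 0.50 (SE 0.45, adjusted p = 0.881). A rarer FXYD1 unigene (TRINITY_DN25922_c1_g1, 1208 bases) had 5.42 ± 1.95 and 8.54 ± 6.99 TPM, with its highest value in no food intake 3 at 20.9 TPM. Its difference was -0.29 (limma adjusted p = 0.943). The most abundant unigene named FXYD3 was 209 bases long with a primate best match, was present in all 7 libraries of the first set and was listed at 0 in all 5 of the second. A second one, Fxyd3, was 313 bases long with a rat best match and was present in 11 libraries. Their differences were -0.22 and -0.15 at means between 1.68 and 1.94 TPM.

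**Figure D4:**
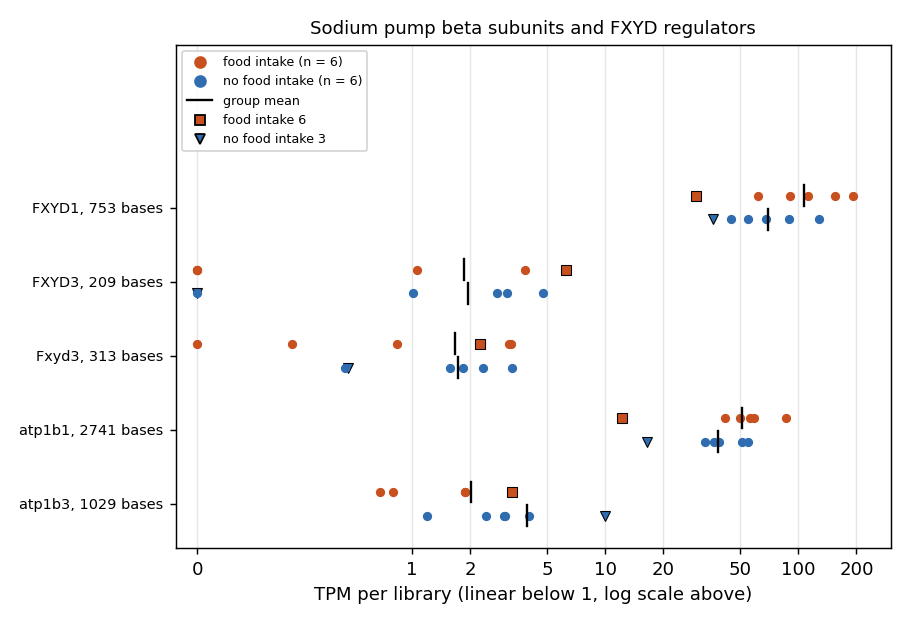
TPM per library (linear below 1, log scale above) of the sodium pump beta subunits and the FXYD regulators, with transcript lengths, food intake in orange, no food intake in blue and black bars for group means (n = 6 per group). Food intake 6 (squares) is lowest for atp1b1 and FXYD1, and no food intake 3 (triangles) is highest for atp1b3 at 9.95 TPM.

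In order of mean TPM over the 12 libraries, FXYD1 (88.4 ± 50.1) and atp1b1 (44.7 ± 19.8) came first, and their spreads overlapped. Then came ATP2A2 (28.5, set by 1 library as described next), ATP6V0C (22.9 ± 13.6) and ATP6V0E1 (14.4 ± 5.68). The remaining names had means from 1.3 to 11.5 TPM, and neighbours in this order did not differ beyond their spread.

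Among the calcium pumps, SERCA had 18 unigenes under 3 names, and a single library without food intake carried most of its RNA. Several of these unigenes are fragments of closely related genes among which reads can be split, so the value of any one of them is uncertain. Summed SERCA TPM was 518 in no food intake 6 and 19.5 to 58.7 in the other 11 libraries. Of the 18 unigenes, only 10 of which were tested, 4 were highest there, beside 6.25% of all tested unigenes. Of these 4, 3 bear the name atp2a1, the SERCA of fast skeletal muscle. The most abundant atp2a1 unigene (TRINITY_DN27116_c0_g1) reached 130 TPM in no food intake 6, against 0 to 3.35 elsewhere, and passed 1 TPM in only 4 libraries, so that it was not tested. A second one (TRINITY_DN27116_c0_g5) reached 76.5 TPM there against 0 to 2.74 elsewhere. Another (TRINITY_DN34355_c0_g3), whose best match is SERCA2, had 61.0 TPM there.

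The most abundant ATP2A2 unigene (TRINITY_DN34355_c0_g6) has a best match to SERCA3 despite its name. It had 3.86, 12.4 and 17.9 TPM with food intake and 5.49, 10.3 and 226 without. The 226 TPM were again in no food intake 6, and the other 5 controls lay inside the food intake range. Its difference of -0.61 (SE 0.69, adjusted p = 0.908) became 0.14 without that library, and that of the atp2a1 unigene with the SERCA2 match went from -0.73 to 0.10. Of the 10 striated muscle genes found, 6 were highest in no food intake 6. Among them were the fast troponins TNNI2 (172 TPM, next highest library 30.0) and TNNT3 (219, next 29.9), and titin TTN (93.5, next 5.30). The other 4 were not highest there, and acta1, the most abundant gene of the list, had 53.4 TPM in no food intake 6 against 379 in food intake 2. TNNI2, TNNT3, TTN and acta1 were named after their values were seen. The list summed to 827 TPM in that library and to 54.8 to 437 in the others, and its part in the SERCA values was not tested.

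With the untested ones again counted, 5 of the 18 SERCA unigenes were highest in food intake 1, beside 16.2% of all tested unigenes. A further 5 were highest in no food intake 3, beside 10.1% of all tested unigenes. They summed to 29.5 TPM there and to 2.26 to 14 in the other libraries. This is the library in which 9 of 10 smooth muscle genes were highest, and smooth muscle is known for using SERCA2. It was also highest for 5 of 6 neuron and glia genes and 2 of 4 red blood cell genes. Whether RNA of any of these cell types accounts for the SERCA values was not tested. In bulk tissue, a change in the number of cells of a type and a change in RNA per cell cannot be told apart.

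**Figure D5:**
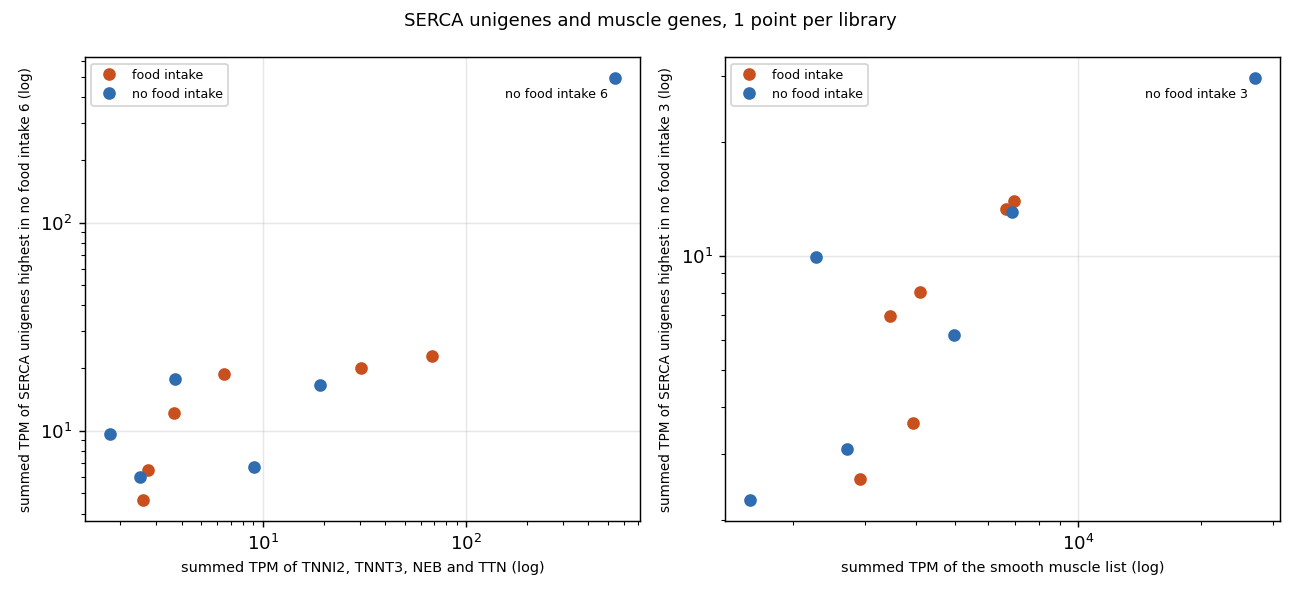
Summed TPM of SERCA unigenes against summed TPM of muscle genes, 1 point per library on log axes, with food intake in orange and no food intake in blue. The left panel sums the 4 SERCA unigenes that are highest in no food intake 6, and the right panel the 5 that are highest in no food intake 3 (29.5 TPM there, up to 14 elsewhere). The SERCA unigenes of each panel were picked by that library, so its place at the top of the vertical axis follows from the choice. The left horizontal axis sums TNNI2, TNNT3, NEB and TTN alone, all of them highest in no food intake 6. Other striated muscle genes, among them acta1, are left out, so the place of that library at the right follows from the choice as well. The right horizontal axis sums the whole smooth muscle list.

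Of the 10 tested SERCA unigenes 4 had a positive difference, and none passed the adjusted test. Atp2a2 (TRINITY_DN27565_c1_g1) had the largest difference of all tested members, with 0.610, 3.98 and 11.2 TPM with food intake and 0.420, 1.43 and 3.01 without. Of the libraries with food intake, 5 of 6 were above the control median, food intake 6 was the exception and the ranges overlapped. The means were 4.57 ± 3.60 and 1.48 ± 0.88 TPM, and the difference was 0.99 (SE 0.40, 95% interval 0.15 to 1.83, unadjusted p = 0.0239, adjusted p = 0.774). The other tested unigenes of that name had differences of 0.67, -0.04, -0.05, -0.10, -0.29 and -0.61. The one at 0.67 was 232 bases long with a rat best match (limma adjusted p = 0.800). Summed by gene name, ATP2A2 differed by -0.18, with no food intake 6 included. ATP2A3, named for the SERCA of secretory and blood cells in mammals, had 0.610, 2.54 and 5.79 against 0.780, 0.980 and 3.47 TPM and a difference of 0.60 (SE 0.35, adjusted p = 0.807). The SERCA median of -0.05 over the 10 tested unigenes was 0.44 in the first library set and -0.51 in the second, and 0.10 without no food intake 6.

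The remaining calcium pumps were scarce. ATP2B4, a plasma membrane calcium pump, had 0.750, 1.70 and 2.42 TPM with food intake and 0.700, 0.850 and 2.06 without, and a difference of 0.37 (SE 0.28, adjusted p = 0.856). ATP2C1, which loads calcium and manganese into the Golgi, had means of 3.34 ± 1.21 and 3.30 ± 0.88 TPM and a difference of -0.02 (adjusted p = 0.995), which was 0.17 without food intake 6.

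Genes that work with the pumps were examined as lists, and in none of the 5 did any unigene pass the adjusted test. Among 23 tested unigenes for assembly and regulation of the proton pump, 13 were positive with a median of 0.06, and those with an unadjusted p under 0.05 were 1 higher and 2 lower, beside 2.48% and 3.79% of all tested unigenes. The 2 lower ones were both named for oxr1, whose protein in mammals binds the V-ATPase. Whether they are pieces of 1 transcript, and so a single observation, was not tested. Of 691 and 453 bases, both were highest in no food intake 4, at 29.3 and 19.1 TPM, against up to 12.2 and 9.98 elsewhere. Neither passed the adjusted test: Oxr1 had means of 4.18 ± 2.57 and 11 ± 9.44 TPM (-1.08, adjusted p = 0.774) and oxr1 had 3.39 ± 2.32 and 8.15 ± 5.82 TPM (-1.01, adjusted p = 0.774). Of 22 lysosomal partner unigenes 10 were positive, with a median of -0.02. The lysosomal protease CTSB was at 33.1 ± 8.51 and 30.6 ± 6.66 TPM. Of 10 unigenes of the complex that holds mTORC1 on the lysosome, 6 were positive, with a median of 0.08.

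Among 14 tested carriers that use the sodium gradient, 8 were positive with a median of 0.04, and 3 had an unadjusted p under 0.05, all with a higher mean with food intake, beside 2.48% of all tested unigenes higher and 3.79% lower. SLC4A4, a sodium bicarbonate cotransporter, had 3.57 ± 2.08 against 1.10 ± 1.19 TPM (1.16, SE 0.35, adjusted p = 0.768). Slc12a2, a sodium, potassium and chloride cotransporter of secretory epithelia, had 5.50 ± 3.26 against 2.01 ± 0.69 TPM (1.0, SE 0.33, adjusted p = 0.768). Of 26 unigenes for calcium store channels, sensors and regulators, 17 were positive with a median of 0.12, and 5 had an unadjusted p under 0.05, all with a higher mean with food intake, beside the same 2.48% higher and 3.79% lower. CALR, the calcium-binding chaperone calreticulin, had 47.9 ± 39.6 against 13.2 ± 7.57 TPM (1.38, SE 0.58, adjusted p = 0.774), with its highest value in food intake 1 at 115 TPM and its lowest in food intake 6 at 5.48 TPM.

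By group means the gastric proton pump itself was far more abundant than any V-ATPase subunit, but in no food intake 3 ATP4B stood at 16.9 TPM beside ATP6V0E1 at 16.1. Its subunit atp4a had 490 ± 205 and 310 ± 181 TPM (0.87, SE 0.59, adjusted p = 0.839) and ATP4B had 401 ± 237 and 253 ± 208 TPM (1.08, SE 0.74, adjusted p = 0.839). Of 24 tested unigenes of the acid and pepsinogen cell markers, 20 were positive with a median of 0.57, in the same libraries in which the V-ATPase was compared. Their part in the V-ATPase differences was not tested.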

How the data were processed

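The deposited values, made by the authors per unigene and library, were read as TPM from their column totals, since the header names no unit. TPM keeps no depth, and precision was judged from the spread between fish. Per the submitters' processing notes, cutadapt and FastQC were used, without stated versions. The assembler's identifiers are those of Trinity, per the file headers, and the quantifier is not given in the sources used here. All sample columns matched a label (0 unmatched). Per the labels' protocols each library is 1 fish.

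Members and gene lists were chosen with earlier results of these data known. limma 3.58.1 in R 4.3.3 (tables read by data.table, release 1.17.8) with a trend in the prior variance was run on log2(TPM + 1). A unigene had to reach 1 TPM in 6 or more libraries. The model held the group alone, with a threshold of 0.05 on the adjusted p. Tables and figures used Python 3.11.15, pandas 2.3.3 and matplotlib 3.10.9. The rRNA-like unigenes were 7 that average 1000 TPM or more and whose log values follow the ART2 unigene (correlation of 0.95 or higher). The fit was tested on simulated data with known changes, where noise was independent and no shift was shared within a library. It recovered 7 of 100 unigenes changed by a log2 size of 1 and 69 of 100 changed by 2, with 3 false calls. Differences of the size seen in the pump unigenes can therefore be missed. Every member name is covered by its most abundant unigene. Others could be named at an unadjusted p under 0.05 or where abundant relative to it, and list genes among the 2 most abundant or 2 smallest p of their list. Rarer unigenes of ATP6V0E1, ATP6V1F and FXYD1 are given as well, since their differences lie on the other side of 0. For ATP2A2, whose unigenes lie on both sides of 0, the differences of all tested ones are given. A rarer ATP6V0A1 unigene is given because it is longer than the most abundant one. Some unigenes of the same pumps are not reported here. No sequence is printed, since the table holds none.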

Additional observations from a re-analysis of the deposited data

Results flagged for a closer look

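In 10 of 66 groups of 6 libraries, over 33 named unigenes, the highest or lowest library stood apart from the nearest other by Dixon's ratio on log2(TPM + 1). Chance flags about 1 in 20 groups, and unigenes that share a library are not independent.

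No food intake 6 stood high for 3 atp2a1 unigenes at 130 TPM (TRINITY_DN27116_c0_g1), 76.5 TPM (TRINITY_DN27116_c0_g5) and 61.0 TPM (TRINITY_DN34355_c0_g3), and for the ATP2A2 unigene TRINITY_DN34355_c0_g6 at 226 TPM. Of the 10 striated muscle genes found, 6 were also highest in that library, and their part was not tested. Food intake 6 stood low for atp1b1 at 12.3 TPM and ATP2C1 at 1.15 TPM, and rRNA-like unigenes made up 64.2% of its TPM. No food intake 4, which held the highest value in 22.8% of all tested unigenes, stood high for ATP6V0A1 at 19.8 TPM and for ATP2B4 at 2.06 TPM. Atp6v1g1 stood high in no food intake 3 at 13.6 TPM. ATP6V1H stood low in no food intake 1 at 2.50 TPM.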

How the results depend on the processing

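The count of pump unigenes past the adjusted threshold was 0 under each alternative run. Over all unigenes it was 0, and 2 with quantile normalization, 1 after rescaling without the rRNA-like unigenes, 2 with median of ratios scaling, and 0 to 1 with each library left out (1 without no food intake 4). At an unadjusted p under 0.05, the 2 higher members (2.48% of all tested unigenes were higher) became 8 after rescaling (5.68% of all), 3 with quantile normalization (4.07%), 4 with median of ratios scaling (4.47%), 13 with food intake 6 and no food intake 3 both left out (7.14%), 15 without food intake 6 alone (8.36%) and 0 without food intake 1 (1.67%). In the first library set alone 0 members were higher (1.47% of all) and 0 lower (5.93%). In the second alone 0 were higher (4.88%) and 2 lower (1.47%). A class median counted as moved when it shifted by at least the within-group SD of the class mean (0.49 for SERCA). Those that moved were sodium pump beta (0.29) and SERCA (-0.61) at a minimum of 5 TPM, where fewer unigenes are tested, and FXYD (0.22) in the first library set alone. The SERCA medians of 0.44 in the first set and -0.51 in the second differ in sign but stay within that limit. Replicate numbers are shared between the groups. After the group mean of each unigene was subtracted from its log2(TPM + 1) values, same-numbered libraries correlated at -0.10 to 0.11. They matched their own number best in 0 of 6 cases, so no pairing by number was seen. With the replicate block 0 unigenes were called, and 994 higher and 1438 lower had an unadjusted p under 0.05.

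Several differences changed sign, and the cause was not tested. FXYD3 was 0.11 with library set as a term. In the first set alone it was 0.19, ATP6V0A1 -0.17, atp6v1c1a -0.054, ATP6V1H -0.025 and atp1b1 -0.077. In the second set alone Fxyd3 was 0.11, ATP2C1 0.23, ATP6V0E1 0.096 and Atp6v1g1 -0.33. After rescaling ATP2C1 was 0.076 and ATP6V0E1 0.0087. With food intake 6 and no food intake 3 both left out, ATP2C1 was 0.096 and ATP6V0E1 0.16. Summed by gene name, ATP6V0E1 was 0.023. With each library left out in turn the ranges were -0.58 to 0.040 for FXYD3, -0.32 to 0.096 for Fxyd3, -0.98 to 0.097 for atp2a1 (TRINITY_DN34355_c0_g3), -0.89 to 0.14 for ATP2A2, -0.094 to 0.17 for ATP2C1, -0.13 to 0.23 for ATP6V0A1, -0.33 to 0.12 for ATP6V0E1 and -0.021 to 0.48 for ATP6V1H.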

Other observations

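Of the 52 pump unigenes, 44 had a best protein match in a fish, 7 in a mammal and 1 none. The 7 with a mammalian match had a median length of 232 bases, against 1234.5 for those with a fish match. Of these 7, 5 had a higher mean in the first library set than in the second, against 18 of 44 with a fish match. The unigenes FXYD3 (TRINITY_DN19780_c0_g1) and ATP2A1 (TRINITY_DN11540_c0_g1), with 209 and 230 bases, were listed at 0 in all 5 libraries of the second set. The origin of these transcripts was not tested. With the V-ATPase unigenes limited to those with a fish match, 20 of 22 were positive, with a median of 0.32.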
